A study of Mus musculus with 6 samples.

Results

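Pericytes and other mural cells were described here through 10 genes in tumor endothelial cells (ECs), given by name as 9 pericyte and mural cell genes (Pdgfrb, Cspg4, Notch3, Kcnj8, Abcc9, Higd1b, Acta2, Des and Myh11) and the EC ligand Pdgfb. All 10 were found by symbol among the 24346 genes with an FPKM value (fragments scaled to transcript length and to mapped reads). ECs were sorted as CD31+ and CD45- cells from MC38 tumors, a mouse colon carcinoma line grown under the skin, in WT mice and Apelin-KO mice, and their mRNA was sequenced in 3 samples per genotype. Both groups were C57BL/6 mice, 8 to 10 weeks old when used, the tumors were taken at day 19, and the sample titles of both groups also name saline. The knockout was not restricted to a cell type, and the gate removes CD45+ cells but selects ECs by CD31 alone. The labels do not say whether each sample is 1 mouse, so the spread between samples may include less than the spread between animals.

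Mural cells wrap the endothelial tube, as pericytes on capillaries and as smooth muscle cells on larger vessels. ECs release PDGF-B, which binds the receptor PDGFRB on pericytes and draws them to new vessels, while NOTCH3, a receptor on mural cells, responds to ligands on the endothelium. No single gene marks all pericytes, and tumor vessels are known for a loose and uneven mural coat, so several markers with different roles were read side by side.

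The knockout was seen in each Apelin-KO sample, since Apln was between 432 and 504 FPKM in WT ECs and between 9.96 and 24.3 FPKM in Apelin-KO ECs. The files hold no read counts, and the depth that low FPKM values imply was between 9000000 and 10240000 reads per sample. Endothelial identity was clear, with 15 of 15 endothelial markers tested and a median level of 266 FPKM. The summed endothelial markers were between 4370 and 5210 FPKM in WT ECs and between 5410 and 5690 FPKM in Apelin-KO ECs, so that the groups did not overlap. Fibroblast markers summed to between 198 and 347 FPKM in WT ECs and between 133 and 206 FPKM in Apelin-KO ECs, and hematopoietic markers to between 187 and 711 FPKM against between 73.2 and 226 FPKM. No fibroblast marker was listed at 0 in all 6 samples. The part of fibroblasts and hematopoietic cells in the differences given here was not tested. In such bulk samples, fewer cells of a type and less RNA per cell cannot be told apart.

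Kcnj8, Abcc9 and Pdgfb were expressed far above the other 7 genes, whose ranges overlapped in part. On the FPKM scale, which is per length, the order of the mean levels over the 6 samples was Kcnj8 (85.5 FPKM), Abcc9 (69.1 FPKM), Pdgfb (59.2 FPKM), Acta2 (7.06 FPKM), Pdgfrb (6.69 FPKM), Higd1b (4.39 FPKM), Cspg4 (2.09 FPKM), Notch3 (0.712 FPKM), Des (0.661 FPKM) and Myh11 (0.231 FPKM). The ranges of Kcnj8, Abcc9 and Pdgfb overlapped over the samples, as did those of Acta2, Pdgfrb and Higd1b, those of Notch3, Des and Myh11, and those of Higd1b with both Cspg4 and Des. The lowest Cspg4 value lay above the highest Notch3 value. The lowest value of Pdgfb, 51.7 FPKM, lay above the highest value of Acta2, 10.4 FPKM, which leaves a wide gap between the 3 highest genes and the other 7.

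**Figure D1:**
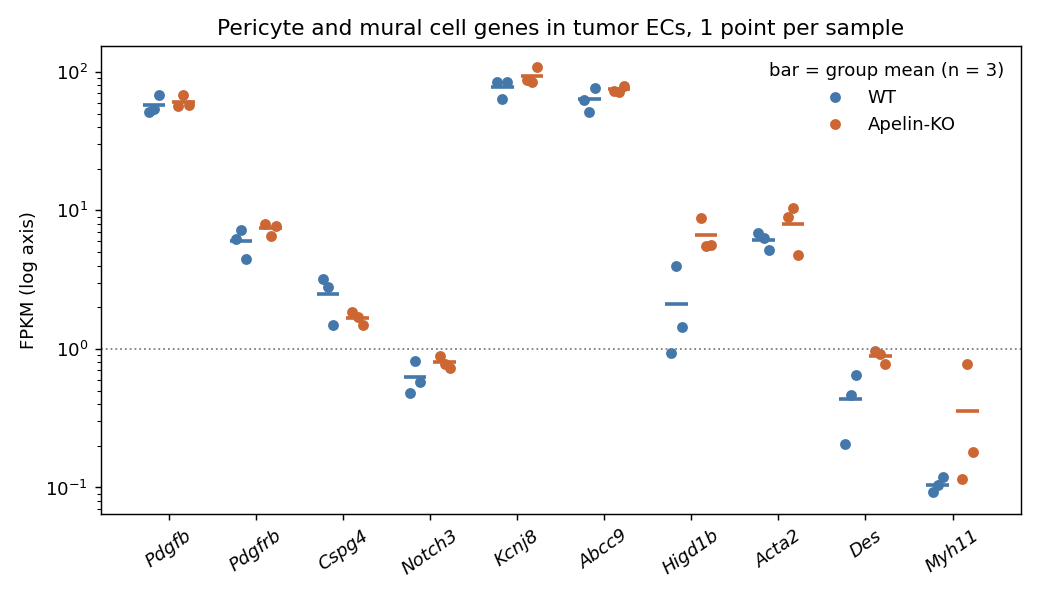
Expression of the 10 genes in tumor ECs as FPKM on a log axis, with 1 point per sample, bars at the mean of each group (n = 3) and a dotted line at 1 FPKM. Kcnj8, Abcc9 and Pdgfb lie above 50 FPKM in every sample, and Notch3, Des and Myh11 lie below the line in every sample.

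To ask whether loss of Apelin changed these genes, the 2 genotypes were set against each other in limma on log2(FPKM + 1), over the 10964 genes whose mean reached 1 FPKM, with p-values adjusted by the Benjamini-Hochberg method. Of the 10 genes, 7 entered this comparison, and Notch3, Des and Myh11 were below the limit. None of the 7 had an adjusted p-value under 0.05, where Apln was the single gene of all those tested to pass (0.00912%). At an unadjusted p-value under 0.05, 1 of the 7 passed in limma, Higd1b, where 9.42% of all genes tested passed in either direction and 4.25% passed in the direction of Apelin-KO. Of the 7, 6 were higher in Apelin-KO ECs, among them Pdgfb at 0.07, and 1 was lower, where 52.5% of all genes tested were higher. The median difference of the 7 genes was 0.26 on the log2 scale, against 0.01 over all genes tested. With the samples scaled to their endothelial markers, the median was 0.02, with 4 higher and 3 lower, where the median over all genes tested was -0.23.

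**Figure D2:**
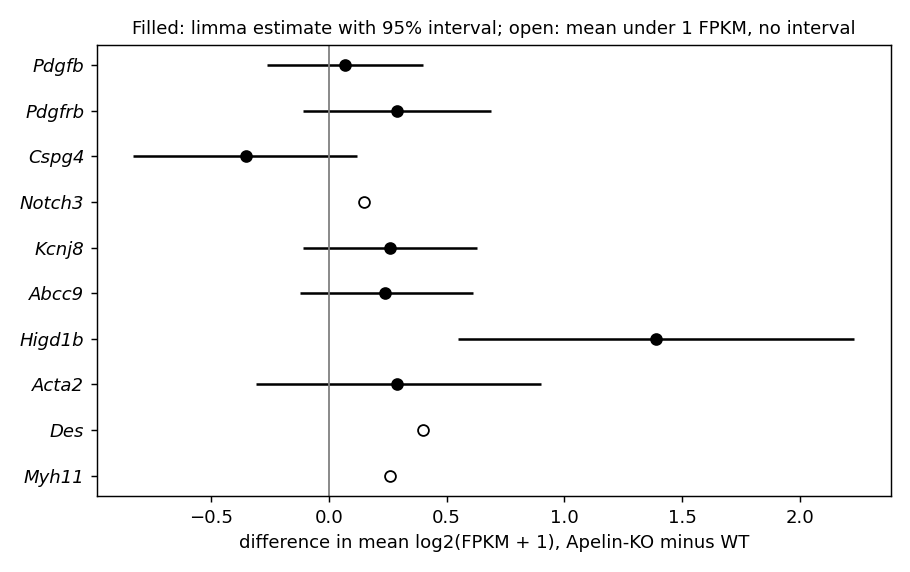
Difference in mean log2(FPKM + 1), Apelin-KO minus WT, for each of the 10 genes, with the 95% interval from limma for the 7 genes tested (filled) and no interval for the 3 genes with a mean below 1 FPKM (open). Only the interval of Higd1b, from 0.55 to 2.23, lies apart from 0, and Cspg4 alone has a negative estimate.

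Pdgfb encodes the PDGF-B chain, the ligand with which ECs recruit pericytes. It maps to the minus strand of chromosome 15 (GRCm38, 79995874 to 80014977). Pdgfb measured 51.7, 54.0 and 68.2 FPKM across WT 1, 2 and 3 against 56.7, 67.5 and 57.3 FPKM across Apelin-KO 1, 2 and 3. The groups overlapped throughout, with 1 high sample in each. The difference of Pdgfb on the log2 scale was 0.07 (standard error 0.14, 95% interval from -0.26 to 0.40, adjusted p = 0.903 in the limma fit). Only 13.9% of the genes tested had a higher mean level, so the ligand was well measured, with an estimated 1333.3 to 1896.9 reads per sample.

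Of the PDGF family, 5 of 6 genes entered the comparison, and 2 passed an unadjusted p-value under 0.05, both lower in Apelin-KO ECs, where 9.42% of all genes tested passed and 5.17% passed as lower. Pdgfa, which encodes a ligand that acts mainly on PDGFRA, was 18.1, 17.9 and 18.3 FPKM in WT ECs and 10.3, 15.7 and 7.92 FPKM in Apelin-KO ECs. Every Apelin-KO sample lay below every WT sample, which was seen for 6.61% of all genes tested, with a difference of -0.68 on the log2 scale (standard error 0.22, unadjusted p = 0.0159, adjusted p = 0.501 from limma). Pdgfra, a receptor that marks fibroblasts, averaged 2.83 ± 1.01 FPKM in WT ECs against 1.51 ± 0.668 FPKM in Apelin-KO ECs (SD, n = 3 each), and its groups overlapped. Its difference was -0.60 (standard error 0.25, unadjusted p = 0.0455, adjusted p = 0.525 from limma), and after quantile normalization the unadjusted p-value was 0.055. When the samples were scaled to their endothelial markers, the differences of Pdgfa and Pdgfra were -0.93 and -0.85 (unadjusted p = 0.00512 and 0.0124 from limma). With that scaling, 19.6% of all genes tested passed as lower. Pdgfra is also one of 8 fibroblast markers tested, all lower in Apelin-KO ECs, and 4 of these passed the unadjusted threshold. Among the 8, Fbln1 had an Apelin-KO mean of 0.857 FPKM and entered through its WT values, so it had to be lower. Fap, below the limit and not tested, was higher in every Apelin-KO sample, with means of 0.0847 FPKM in WT ECs and 0.411 FPKM in Apelin-KO ECs. Pdgfd, a second ligand of PDGFRB, was expressed at the level of Pdgfb, averaging 57.1 ± 12.6 FPKM in WT ECs against 60.8 ± 7.19 FPKM in Apelin-KO ECs (SD, n = 3 each).

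Pdgfrb, the pericyte receptor for PDGF-B, maps to the plus strand of chromosome 18 (GRCm38, 61045150 to 61085061). Pdgfrb measured 6.25, 7.19 and 4.46 FPKM across WT 1, 2 and 3 against 8.01, 6.49 and 7.76 FPKM across Apelin-KO 1, 2 and 3. WT 3 was the lowest sample, and WT 2 lay above Apelin-KO 2. The difference of Pdgfrb on the log2 scale was 0.29 (standard error 0.17, 95% interval from -0.11 to 0.69, adjusted p = 0.621 from limma). Without WT 3 the difference was 0.12, and without WT 2 it was 0.42, with an unadjusted p-value of 0.0488 in limma. An estimated 213.1 to 390.9 reads per sample covered the gene, and 64.8% of the genes tested had a higher mean level. The FPKM of Pdgfb was between 7.08 and 15.3 times that of Pdgfrb in the same sample.

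Cspg4 encodes the NG2 proteoglycan, a surface marker of pericytes, and maps to the plus strand of chromosome 9 (GRCm38, 56865033 to 56899870). Cspg4 measured 3.21, 2.81 and 1.48 FPKM across WT 1, 2 and 3 against 1.84, 1.69 and 1.49 FPKM across Apelin-KO 1, 2 and 3. WT 1 and WT 2 were higher than all other samples, while WT 3 was the lowest of the 6. The difference of Cspg4 was -0.35 on the log2 scale (standard error 0.20, 95% interval from -0.83 to 0.12, adjusted p = 0.614 from limma). It was -0.59 without WT 3, with an unadjusted p-value of 0.00305 (adjusted p = 0.165), but -0.20 without WT 1 and -0.27 without WT 2 (unadjusted p = 0.351 and 0.281). The adjusted p-values of Cspg4 over the alternatives that tested it lay between 0.165 and 0.962.

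Pdgfrb and Cspg4 are both used to find pericytes, and their estimates had opposite signs, although neither passed the test. The ratio of Pdgfrb to Cspg4, in which any scaling between samples cancels, came to 1.95, 2.55 and 3.01 across WT 1, 2 and 3 against 4.35, 3.84 and 5.21 across Apelin-KO 1, 2 and 3. Every Apelin-KO sample had a higher ratio than every WT sample, with means of 4.47 ± 0.694 against 2.51 ± 0.535 (SD, n = 3 each). An exact permutation test (two-sided) gave p = 0.1, the smallest possible here, and 0.6 when adjusted over the 6 ratios. The ratio was chosen after the values of both genes were seen, so this p supports nothing and the ratio is a description. The other 5 ratios computed between the 10 genes overlapped between the groups.

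Notch3 encodes a Notch receptor of mural cells and maps to the minus strand of chromosome 17 (GRCm38, 32120820 to 32166852). Notch3 measured 0.481, 0.813 and 0.575 FPKM across WT 1, 2 and 3 against 0.892, 0.776 and 0.734 FPKM across Apelin-KO 1, 2 and 3. WT 2 lay within the Apelin-KO samples, and the other 2 WT samples lay below them. These levels stand for an estimated 38.1 to 65.1 reads per sample, and the difference of 0.15 on the log2 scale gave an exact permutation p of 0.3 (two-sided), in a design where 3 against 3 samples cannot go below 0.1. The limma fit without the limit on the mean gave an unadjusted p-value of 0.158 (adjusted p = 0.673). The difference was -0.09 with scaling to the endothelial markers. It was 0.34 and 0.39 with pseudocounts of 0.1 and 0.01, and between 0.09 without WT 1 and 0.24 without WT 2. An antisense gene, Gm17276, overlaps Notch3, and whether the authors' FPKM used the strand is not given in the sources used here. Antisense genes overlap Pdgfb by 2647 bases and Des by 368 bases as well. Of the 7 Notch genes listed with it, 5 entered the comparison and 1 passed an unadjusted p-value under 0.05, where 9.42% of all genes tested passed and 4.25% passed as higher. Jag2, a Notch ligand, averaged 19.4 ± 1.03 FPKM in WT ECs against 26.2 ± 2.39 FPKM in Apelin-KO ECs (SD, n = 3 each), with no overlap, which 7.77% of all genes tested showed in this direction, and a difference of 0.41 (standard error 0.11, unadjusted p = 0.00663, adjusted p = 0.501 from limma). When the samples were scaled to their endothelial markers, the difference of Jag2 was 0.17 (unadjusted p = 0.278). Dll4, the Notch ligand of tip cells, and Hes1, a Notch target, were the highest of the list at 181 and 129 FPKM, and both overlapped between the groups.

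Kcnj8 and Abcc9 encode Kir6.1 and SUR2, the pore and the regulatory subunit of the ATP-sensitive potassium channel of vessels, and both are widely used as pericyte markers. They are neighbours on the minus strand of chromosome 6 of GRCm38, Kcnj8 from 142564837 to 142571614 and Abcc9 from 142587862 to 142702315, with 16247 bases and 0 annotated genes between them. Their promoters, and that of Acta2, are shown because these were the highest channel and contractile genes of the 10. RefSeq promoters (GRCm38.p6, 250 bases before to 50 bases after the start site, 5′ to 3′ on the gene's strand) matched 6 of the 10 genes, namely Kcnj8, Abcc9, Acta2, Des, Cspg4 and Notch3, and none was found for Pdgfrb, Higd1b, Myh11 and Pdgfb. Capitals mark TGGGAA, the core bound by the Notch effector RBPJ, searched on both strands, and the CArG box bound by serum response factor, with at most 1 G or C among its 6 central bases. Of all 32851 promoters, 25.6% hold TGGGAA, 9.98% hold such a CArG box, and 1.63% hold one with A or T alone in its centre.
Kcnj8, chr6:142571565-142571864: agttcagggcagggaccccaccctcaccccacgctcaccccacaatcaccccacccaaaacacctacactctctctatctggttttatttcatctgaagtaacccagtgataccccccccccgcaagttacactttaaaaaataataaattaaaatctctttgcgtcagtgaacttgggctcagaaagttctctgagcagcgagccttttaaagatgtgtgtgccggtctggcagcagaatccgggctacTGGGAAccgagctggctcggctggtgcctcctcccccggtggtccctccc
Abcc9, chr6:142702225-142702524: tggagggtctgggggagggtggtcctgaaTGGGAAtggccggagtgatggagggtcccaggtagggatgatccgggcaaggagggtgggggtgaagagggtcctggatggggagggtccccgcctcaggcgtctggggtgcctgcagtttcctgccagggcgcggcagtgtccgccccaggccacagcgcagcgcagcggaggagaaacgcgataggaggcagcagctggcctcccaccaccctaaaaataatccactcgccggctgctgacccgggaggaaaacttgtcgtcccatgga
Acta2, chr19:34255324-34255623: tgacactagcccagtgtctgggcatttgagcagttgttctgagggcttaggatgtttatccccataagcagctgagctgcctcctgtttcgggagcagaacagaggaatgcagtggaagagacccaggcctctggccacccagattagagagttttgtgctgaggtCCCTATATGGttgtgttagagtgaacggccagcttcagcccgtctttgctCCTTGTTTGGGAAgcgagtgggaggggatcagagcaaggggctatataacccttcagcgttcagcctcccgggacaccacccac

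TGGGAA was found at the start site of Kcnj8, 221 bases upstream of that of Abcc9, and 27 bases upstream of that of Acta2, where it overlaps a CArG box. The CArG boxes of Acta2, CCCTATATGG and CCTTGTTTGG, start 84 and 34 bases upstream. Neither motif was found in these windows of Des, Cspg4 and Notch3. The matches are letters in a window and no measure of binding.

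Kcnj8 measured 84.5, 63.9 and 85.1 FPKM across WT 1, 2 and 3 against 87.6, 84.1 and 108 FPKM across Apelin-KO 1, 2 and 3. WT 2 was the lowest sample and Apelin-KO 3 the highest, and the others lay close together. The difference of Kcnj8 was 0.26 on the log2 scale (standard error 0.16, 95% interval from -0.11 to 0.63, adjusted p = 0.634 from limma), and it was 0.13 without WT 2 and 0.15 without Apelin-KO 3. Abcc9 measured 62.5, 51.6 and 77.0 FPKM across WT 1, 2 and 3 against 73.0, 72.1 and 78.6 FPKM across Apelin-KO 1, 2 and 3. WT 2 was again the lowest and Apelin-KO 3 the highest sample. The difference of Abcc9 was 0.24 (standard error 0.15, 95% interval from -0.12 to 0.61, adjusted p = 0.646 from limma). It was 0.10 without WT 2 and 0.39 without WT 3, the latter with an unadjusted p-value of 0.0267 (adjusted p = 0.373). An antisense gene, 5330439B14Rik, overlaps part of Abcc9.

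Both channel genes were expressed far above the other mural genes. The level of Kcnj8 was between 8.89 and 19.1 times that of Pdgfrb in the same sample, and that of Abcc9 between 7.18 and 17.3 times. Only 9.24% of the genes tested had a higher mean level than Kcnj8, and 11.7% a higher one than Abcc9, against 89.1% for Cspg4. The ratio of Kcnj8 to Abcc9 was between 1.11 and 1.38, above 1 in each of the 6 samples. The other subunits of this channel family, Kcnj11 and Abcc8, had means below 1 FPKM, and Abcc8 was listed at 0 in all 6 samples. In level, Kcnj8 and Abcc9 thus stood beside the EC ligand Pdgfb, well above Pdgfrb, Cspg4 and Notch3, in these CD31+ cells.

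**Figure D3:**
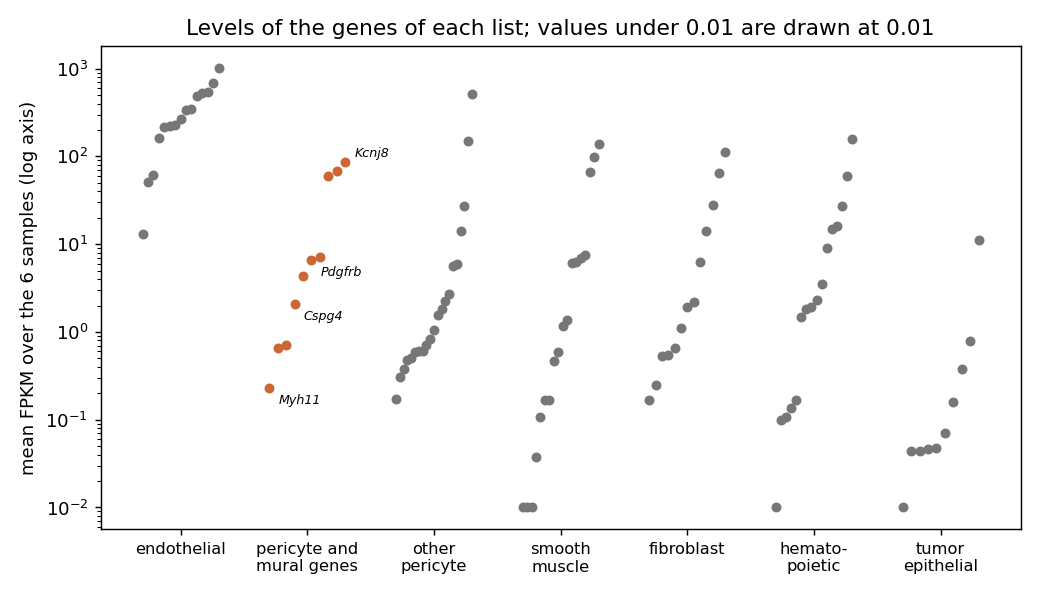
Mean FPKM over the 6 samples, on a log axis, of each gene of the endothelial, pericyte and mural, other pericyte, smooth muscle, fibroblast, hematopoietic and tumor epithelial lists, with values below 0.01 drawn at 0.01. Kcnj8 at 85.5 FPKM lies within the range of the endothelial markers, which runs from 12.9 to 1020 FPKM, while Pdgfrb, Cspg4 and Myh11 lie below it. Some markers of other cells also lie in this range, such as Col1a1 of fibroblasts at 113 FPKM and Lyz2 of hematopoietic cells at 158 FPKM.

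Higd1b, a mitochondrial protein gene of the hypoxia-inducible domain family that is used as a pericyte marker, had the largest difference of the 7 genes tested. It maps to the plus strand of chromosome 11 (GRCm38, 102835849 to 102838040). Higd1b measured 0.930, 3.99 and 1.44 FPKM across WT 1, 2 and 3 against 8.88, 5.52 and 5.60 FPKM across Apelin-KO 1, 2 and 3. Every Apelin-KO sample lay above every WT sample, which was seen for 7.77% of all genes tested, and WT 2 came closest to the Apelin-KO samples. The group means were 2.12 ± 1.64 FPKM in WT ECs against 6.67 ± 1.92 FPKM in Apelin-KO ECs (SD, n = 3 each). The difference of Higd1b was 1.39 on the log2 scale (standard error 0.36, 95% interval from 0.55 to 2.23, unadjusted p = 0.0057, adjusted p = 0.501 from limma).

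Few reads stand behind the WT values of Higd1b, whose longest coding transcript has 735 bases. These values rested on an estimated 5.1, 19.2 and 7.1 reads across WT 1, 2 and 3 against 44.4, 30.3 and 28.4 reads across Apelin-KO 1, 2 and 3. Leaving out any 1 of the 6 samples gave a difference of Higd1b between 1.11 and 1.79, and every such fit had an unadjusted p-value under 0.05 in limma. Endothelial markers were also higher in Apelin-KO ECs, and with the samples scaled to them the difference of Higd1b was 1.15 (unadjusted p = 0.0187, adjusted p = 0.232), but the groups then overlapped, with WT 2 at -5.23 and Apelin-KO 3 at -5.28 relative to the endothelial markers on the log2 scale. The adjusted p-values of Higd1b over all alternatives that tested it lay between 0.232 and 0.757. Of its family, Higd1a averaged 8.73 ± 0.574 FPKM in WT ECs against 9.19 ± 2.84 FPKM in Apelin-KO ECs (SD, n = 3 each), with a difference of 0.03 (standard error 0.20, adjusted p = 0.976 from limma). Higd2a was the highest of the family at 144 FPKM, and Higd1c was listed at 0 in all 6 samples.

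Acta2, Des and Myh11 encode smooth muscle actin, the intermediate filament desmin and the smooth muscle myosin heavy chain, the contractile and structural proteins of mural cells. In GRCm38, Acta2 maps to chromosome 19 (34241090 to 34255590, minus strand), Des to chromosome 1 (75360329 to 75368579, plus strand) and Myh11 to chromosome 16 (14194535 to 14291372, minus strand). Acta2 measured 6.83, 6.35 and 5.14 FPKM across WT 1, 2 and 3 against 8.93, 10.4 and 4.76 FPKM across Apelin-KO 1, 2 and 3. Apelin-KO 3 was the lowest of the 6 samples, and Apelin-KO 1 and 2 were the highest. The difference of Acta2 was 0.29 (standard error 0.25, 95% interval from -0.31 to 0.90, adjusted p = 0.742 from limma), and it was 0.59 without Apelin-KO 3, with an unadjusted p-value of 0.00719 (adjusted p = 0.724). It was 0.10 without Apelin-KO 2 (unadjusted p = 0.713), and 0.19 without Apelin-KO 1 or without WT 3. Actin genes share much of their coding sequence, so the FPKM of Acta2 can include reads of other actins.

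Des measured 0.206, 0.464 and 0.645 FPKM across WT 1, 2 and 3 against 0.966, 0.915 and 0.773 FPKM across Apelin-KO 1, 2 and 3. Every Apelin-KO sample lay above every WT sample, at an estimated 20.7 to 26.5 reads against 5.9 to 16.7 reads. Such a separation was seen for 7.77% of all genes tested in the planned comparison, which Des did not enter. For genes below the limit, the share is not known here, so how unusual the separation of Des is cannot be judged. The mean of Des was below 1 FPKM, and an exact permutation test (two-sided) gave p = 0.1, the smallest that 3 against 3 samples allow. In the limma fit without the limit on the mean, the difference was 0.40 (standard error 0.13, unadjusted p = 0.0199, adjusted p = 0.51) and 8.89% of genes passed the unadjusted threshold. The difference of Des was 0.16 with scaling to the endothelial markers, and 0.96 and 1.13 with pseudocounts of 0.1 and 0.01. Des marks skeletal muscle too, and the 9 skeletal muscle markers summed to between 0.701 and 1.68 FPKM in WT ECs and between 1.1 and 2.89 FPKM in Apelin-KO ECs, most of it Mylpf, with Myh1, Myh4 and Tnnt3 listed at 0 in all 6 samples. Vim and Nes, the filament genes with the highest levels in the list of Des partners, were 1340 and 44.9 FPKM and overlapped between the groups.

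Myh11, a marker of contractile smooth muscle, measured 0.092, 0.104 and 0.119 FPKM across WT 1, 2 and 3 against 0.116, 0.773 and 0.181 FPKM across Apelin-KO 1, 2 and 3. Apelin-KO 2 stood apart, at an estimated 50.3 reads where the other 5 samples had between 5.9 and 10.9 reads. The mean of the Apelin-KO samples therefore rests on 1 sample, and the difference of 0.26 on the log2 scale gave an exact permutation p of 0.2 (two-sided, smallest possible 0.1) and an unadjusted p-value of 0.198 (adjusted p = 0.704) in the limma fit without the limit on the mean. The difference of Myh11 was 0.06 without Apelin-KO 2, 0.02 with scaling to the endothelial markers, and 0.88 and 1.22 with pseudocounts of 0.1 and 0.01. Apelin-KO 2 also had the highest Acta2, and the ratio of Acta2 to Myh11 was 13.4 in it, the lowest of the 6 samples, which ran up to 77.0.

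Of 18 further smooth muscle genes, 9 entered the comparison, with 2 at an unadjusted p-value under 0.05, both higher in Apelin-KO ECs, where 9.42% of all genes tested passed, and a median difference of 0.02. Smtn, which encodes the actin-binding protein smoothelin, averaged 87.4 ± 9.25 FPKM in WT ECs against 111 ± 9.88 FPKM in Apelin-KO ECs (SD, n = 3 each). Myl9, a regulatory light chain of myosin, averaged 6.46 ± 0.205 FPKM in WT ECs against 8.65 ± 1.64 FPKM in Apelin-KO ECs (SD, n = 3 each). Their differences were 0.34 and 0.36 (adjusted p = 0.509 and 0.515 from limma), and 0.10 and 0.12 with unadjusted p-values of 0.435 and 0.502 when scaled to the endothelial markers. With that scaling, Tagln alone of this list passed, at -0.55 (unadjusted p = 0.0415), where 19.9% of all genes tested passed, 19.6% as lower. The median of the list was then -0.23, as over all genes tested. Tpm1, a tropomyosin, was the highest of the list at 138 FPKM. Myocd, which encodes the coactivator that drives the smooth muscle program, was listed at 0 in all 6 samples, and Cnn1 and Lmod1 had means of 0.01 and 0.0095 FPKM.

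Other pericyte genes, 23 symbols of which 21 were among the deposited ones, held 4 tested genes that were higher in every Apelin-KO sample than in any WT sample. The 2 missing symbols, Gucy1a1 and Gucy1b1, were covered by their older names. Of the 21, 11 entered the comparison and 4 had an unadjusted p-value under 0.05 in limma, all higher in Apelin-KO ECs and none after adjustment. Of all genes tested, 4.25% passed as higher, and 7.77% had every Apelin-KO sample above every WT sample. Rgs5, a G-protein regulator that marks pericytes, measured 3.48, 3.17 and 3.66 FPKM across WT 1, 2 and 3 against 6.83, 7.86 and 8.67 FPKM across Apelin-KO 1, 2 and 3. Its difference was 0.98 (standard error 0.11, unadjusted p = 5.86e-05, adjusted p = 0.214). S1pr3, a sphingosine-1-phosphate receptor, averaged 0.782 ± 0.119 FPKM in WT ECs against 2.38 ± 0.445 FPKM in Apelin-KO ECs (SD, n = 3 each). Rgs4 averaged 1.28 ± 0.574 FPKM in WT ECs against 3.27 ± 0.514 FPKM in Apelin-KO ECs (SD, n = 3 each). Ndufa4l2, a hypoxia-induced mitochondrial gene, averaged 1.19 ± 0.436 FPKM in WT ECs against 2.49 ± 0.87 FPKM in Apelin-KO ECs (SD, n = 3 each). For none of these 4 genes did the groups overlap. S1pr3 had a WT mean below 1 FPKM and entered the comparison through its Apelin-KO values, so it had to be higher there to be tested. Among the genes with a mean of 1 FPKM or more in both groups, 3 of 10 passed. Scaled to the endothelial markers, all 4 estimates were still positive, but Ndufa4l2 no longer passed (unadjusted p = 0.0877). The other 7 genes tested then had negative estimates, and the median of the list was -0.08, against -0.23 over all genes, which this scaling shifts alike. The 2 highest genes of the list, Mcam at 511 FPKM and Gja4 at 148 FPKM, are also expressed by ECs and overlapped between the groups.

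**Figure D4:**
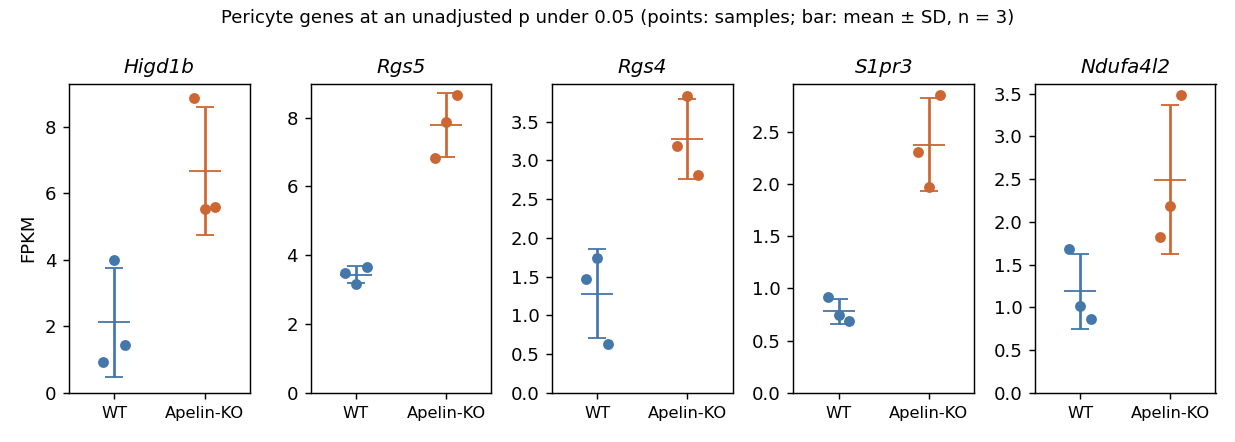
FPKM of Higd1b, Rgs5, Rgs4, S1pr3 and Ndufa4l2 in each WT and Apelin-KO sample (points), with mean and SD (bars, n = 3); the panels have separate axes, each from 0. In each panel the 3 Apelin-KO samples lie above the 3 WT samples, and all 5 genes lie below 10 FPKM. S1pr3 reached the limit of 1 FPKM only through its Apelin-KO samples.

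Other genes take part in the exchange between ECs and mural cells, as ligands of either cell or as receptors. Of 12 such genes, Pdgfb included, 11 entered the comparison and 1 passed an unadjusted p-value under 0.05, a share close to the 9.42% over all genes tested. Cxcl12, a chemokine, averaged 45.0 ± 3.88 FPKM in WT ECs against 34.9 ± 4.35 FPKM in Apelin-KO ECs (SD, n = 3 each). Its groups did not overlap, which 6.61% of all genes tested showed in this direction. Its difference was -0.36 (standard error 0.13, unadjusted p = 0.0266, adjusted p = 0.509 from limma), and -0.60 with scaling to the endothelial markers (unadjusted p = 0.00623 from limma). With that scaling, 1 of the 11 genes was higher and 10 were lower in Apelin-KO ECs. Of these, 2 passed as lower, where 19.6% of all genes tested did. S1pr1, an endothelial sphingosine-1-phosphate receptor, was the highest of the list at 457 FPKM, averaging 422 ± 18.5 FPKM in WT ECs against 492 ± 33.5 FPKM in Apelin-KO ECs (SD, n = 3 each) and an unadjusted p-value of 0.066.

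The levels were also set against the endothelial RNA of the same sample, as log2(FPKM + 1) minus the mean of the 15 endothelial markers. That mean came to 7.72, 7.55 and 7.85 across WT 1, 2 and 3 against 7.93, 7.91 and 8.0 across Apelin-KO 1, 2 and 3. All 15 markers were higher in Apelin-KO ECs, against 52.5% of all genes tested, and 5 passed an unadjusted p-value under 0.05, against 4.25% of all genes in this direction, among them Pecam1, which encodes CD31, the antigen of the sort, averaging 604 ± 60.5 FPKM in WT ECs against 760 ± 79.5 FPKM in Apelin-KO ECs (SD, n = 3 each). Relative to these markers, Kcnj8 was at -1.42 in WT ECs and -1.39 in Apelin-KO ECs, and Abcc9 was at -1.71 in both. Pdgfrb was at -4.92 and -4.88, Acta2 at -4.88 and -4.83, and Pdgfb at -1.83 and -2.01. On this scale the groups overlapped for all 10 genes. Higd1b still had the largest difference between the means, at -6.19 in WT ECs and -5.04 in Apelin-KO ECs, and Cspg4 followed at -5.94 and -6.53. With this scaling Cspg4 had an unadjusted p-value of 0.0437 in limma (adjusted p = 0.244), where 19.9% of all genes tested passed the unadjusted threshold, 19.6% as lower and 0.319% as higher in Apelin-KO ECs. The part of the endothelial markers in these differences was not tested.

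**Figure D5:**
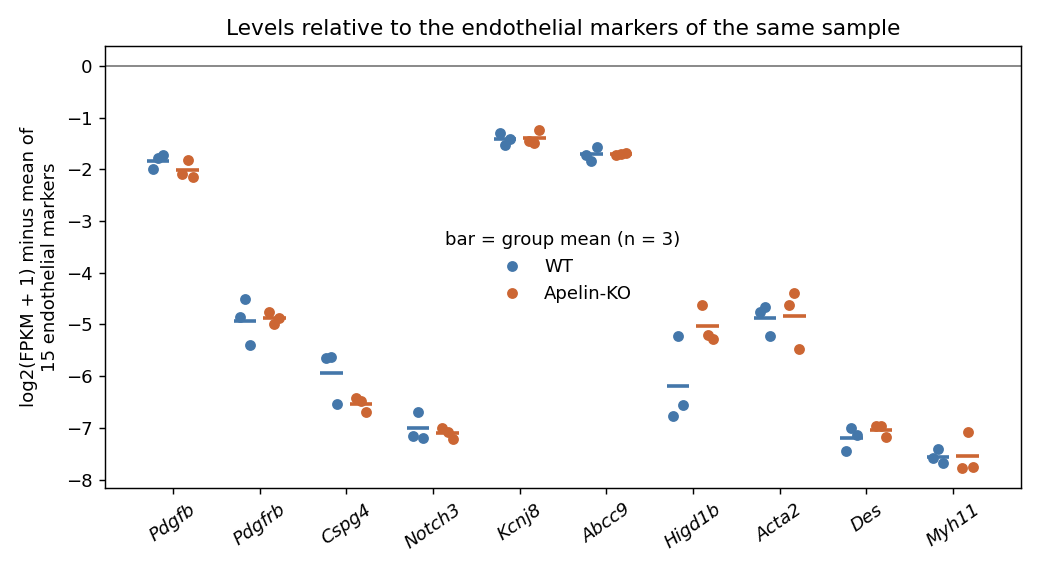
Level of each of the 10 genes as log2(FPKM + 1) minus the mean of the 15 endothelial markers in the same sample, with 1 point per sample and bars at the group means (n = 3); 0 is the mean endothelial marker. Kcnj8, Abcc9 and Pdgfb lie between -2.14 and -1.23, and the group means of Kcnj8 and Abcc9 coincide within 0.03.

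Over the 6 samples, 3 of each genotype, so that a correlation holds any difference between the genotypes as well, the levels of Notch3 and Higd1b were the most alike of these genes (Pearson r = 0.95 on the log2 scale), followed by Kcnj8 and Abcc9 (r = 0.87) and by Higd1b and Des (r = 0.82). Pdgfrb correlated with Higd1b at 0.75 and with Notch3 at 0.68, but with Kcnj8 at 0.12 and with Abcc9 at -0.18. Cspg4 ran against Abcc9 (r = -0.86) and Des (r = -0.83). The genes most like Pdgfrb among all those tested were Itpripl1 (r = 0.988), Wbscr27 (r = 0.984) and 4833439L19Rik (r = 0.981), and those most like Pdgfb were Zfp317 (r = 0.988), Kmt2c (r = 0.984) and Zmat1 (r = 0.982). These values rest on 6 samples and are the highest of 10964 genes tested. Of these genes, 49 had a correlation above 0.9 with Pdgfrb and 50 with Pdgfb.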

How the data were processed

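RNA of sorted tumor ECs was analysed in 3 WT and 3 Apelin-KO samples. From stranded mRNA libraries read in single 75-base runs and aligned to mm10 (TopHat, Bowtie2), the authors deposited FPKM from Cufflinks 2.2.1, with 3 decimals and 1 value per gene symbol. The submitters' processing notes name TopHat2 2.1.1 and Bowtie2 2.2.4. Read counts, the annotation and the strand setting are not given in the sources used here.

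Deposited FPKM were taken without rescaling and turned into log2(FPKM + 1). Genes whose mean reached 1 FPKM went into limma 3.58.1 (R 4.3.3), Apelin-KO minus WT, with a two-sided moderated test, no block and Benjamini-Hochberg adjustment over all 10964 genes tested. The script was checked on simulated data. The study names a two-sided test without moderation, which was run as an alternative. The limma p-values set a difference against the spread between these samples. That spread was moderated over all genes tested, save in the alternative without moderation.

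Depth was estimated from 200-base fragments and genes with 1 annotated transcript above 700 bases, where between 62.6% and 66.5% of low values came within 0.1 of a whole read and chance gives 20%. Reads of a gene use its longest coding transcript in GENCODE M21 (GRCm38), are estimates and cover counting error only.

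The 10 genes and the gene lists were chosen with earlier results of these data known. All 10 were described. From each other list, genes with an unadjusted p-value under 0.05 or among the 2 highest by level were named for lists of mural and signalling genes, the marker lists of other cells being given mainly by counts and ranges, and for Pdgfrb and Pdgfb the 3 genes with the highest correlation. The ratios between genes, the CArG box with 1 base relaxed, Tagln, Cnn1, Lmod1 and the count of pericyte genes with both means at 1 FPKM or more were chosen after values were seen. Alternatives changed the pseudocount, filter, scaling, variance, weights, block and samples. Protein sequences were not used here. Python 3.11.15, numpy 2.4.6, pandas 2.3.3, scipy 1.17.1 and matplotlib 3.10.9 were used.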

Additional observations from a re-analysis of the deposited data

How the results depend on the processing

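Of the 10 genes, Higd1b alone had an unadjusted limma p-value under 0.05 in the planned comparison. The count of 1 became 2 without the filter on mean FPKM, where Des was added, and 2 with scaling to the endothelial markers, where Cspg4 was added and 2185 genes of all those tested passed, 2150 of them lower in Apelin-KO ECs, against 1033 as deposited. It became 0 with a mean of at least 5 FPKM, since Higd1b was then not tested. With a sample left out it was between 1 and 3, while between 544 (without WT 2) and 1223 (without WT 3, where it was 3) of all genes tested passed. Without WT 2 Pdgfrb was added, without WT 3 Cspg4 and Abcc9, and without Apelin-KO 3 Acta2.

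The median difference of the 9 mural genes was 0.26. It was 0.33 and 0.34 with a pseudocount of 0.1 and 0.01, which raise the differences of low genes, and 0.02 with scaling to the endothelial markers, a scaling that lowers the median of all genes tested from 0.01 to -0.23. With this scaling Notch3 turned to -0.09 and Pdgfb to -0.18. Pdgfb lay between -0.01 and 0.19 with a sample left out, and turned to -0.01 without WT 1 or without Apelin-KO 2.

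Over all genes tested, 1 had an adjusted limma p-value under 0.05. This count was 2 when the filter was dropped or raised to 5 FPKM, when the pseudocount was 0.01 and under an intensity trend, 0 with the variance of each gene alone (783 at an unadjusted p-value under 0.05), and between 0 and 3 with a sample left out, and the cause was not tested. It was 3 without WT 1, 2 without WT 3 or Apelin-KO 1, and 0 without WT 2 or Apelin-KO 2, where 544 and 1163 genes had an unadjusted p-value under 0.05.

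No label says that a replicate number marks a shared mouse or day, and deviations of samples with the same number correlated at -0.14, 0.21 and -0.02 for numbers 1, 2 and 3, so the samples were not treated as paired. With the replicate block, 1 of these genes, Higd1b, passed an unadjusted p-value under 0.05, and 893 genes passed in place of 1033. The estimated depth leaves Notch3, Des, Myh11 and the WT values of Higd1b with few reads, and the filter kept Notch3, Des and Myh11 out of the planned comparison.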
